A study of Mus musculus with 4 samples.

Results

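The solute carrier genes (Slc genes) encode membrane proteins that move amino acids, sugars, ions, bile acids and other small molecules across the surface of the cell and the membranes of its organelles. They were taken as all symbols of Slc followed by a digit, other than Slc2a4, in the first sheets of both deposited gene tables, with 1 row per symbol. This gave 23 genes of the 943 in the tables, and 1 further symbol of this form, Slc2a4, was left out by that rule. The study measured liver RNA of mice in 4 groups of 1 library each. The targeted groups carry the label L_Cyb5b_shCyb5a in the refed and in the fasted state, and the control groups are labelled WT with shNC in the same states. The labels do not spell out L, which was read as liver. On that reading, the targeted mice combine a change of Cyb5b in liver with a short hairpin RNA against Cyb5a. The controls combine a wild type genotype with the hairpin control. The driver of the Cyb5b change, the hairpin vector, sex, age, the number of animals behind a library and the times of fasting and refeeding were not stated in the sources used here.

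Solute carriers work as symporters, which couple a substrate to an ion gradient, as exchangers, or as facilitators that let a substrate run down its own gradient. In liver they take up amino acids and bile acids from blood, move glucose in both directions, handle iron, zinc, copper and manganese, and link the mitochondrial matrix to the cytosol through the Slc25 carriers. Cyb5a and Cyb5b encode cytochromes b5, heme proteins that donate electrons to enzymes of lipid metabolism, and the study's title concerns their role in removing methyl groups from sterols on the way to cholesterol.

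Levels are TPM, the share of all transcripts after correction for length. There are no replicates, so each difference below is between 2 libraries and has no replicate check, and no test was made. Each deposited table lists only genes that are at least 2-fold different between targeted and control in its own feeding state by the authors' ratio, which can be less by TPM, so a member in a table was selected for that difference. Whole reads could be recovered from the authors' log2 ratios and p-values for each of the 23 members in the state of its own table, for Slc7a7 and Slc26a10 after rounding. A range in parentheses that follows a fold is a 95% Clopper-Pearson counting interval from these reads, moved to the TPM ratio. They cover counting error only. The depth was estimated at about 13600000 to 13700000 reads per library. In the fasted state the scale matters, because over all listed genes the log2 ratio of targeted over control is lower by 0.21 (median) when computed from FPKM than from TPM, and FPKM minus TPM shifts the refed ratio by -0.03.

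Of the 23 members, 7 are in the refed and 17 in the fasted table, and Slc15a2 is in both. Of the 7 refed members, 6 were higher and 1 was lower in the targeted library, in a table with 78.2% of all genes higher and 21.8% lower. Of the 17 fasted members, 6 were higher and 11 lower, in a table with 30.3% of all genes higher and 69.7% lower. The split of the members was thus close to that of the tables they were drawn from. All 23 members were above 0 in all 4 libraries. Of these, 15 reached 5 TPM in at least 1 library, 8 stayed under 5 TPM in each library and 3 stayed under 1 TPM. The 6 members that were higher in the fasted table all reached 5 TPM, whereas 7 of the 11 lower ones stayed under 5 TPM in each library. Such level counts were not made over all genes of the tables, so they are not read as a trait of solute carriers.

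**Figure D1:**
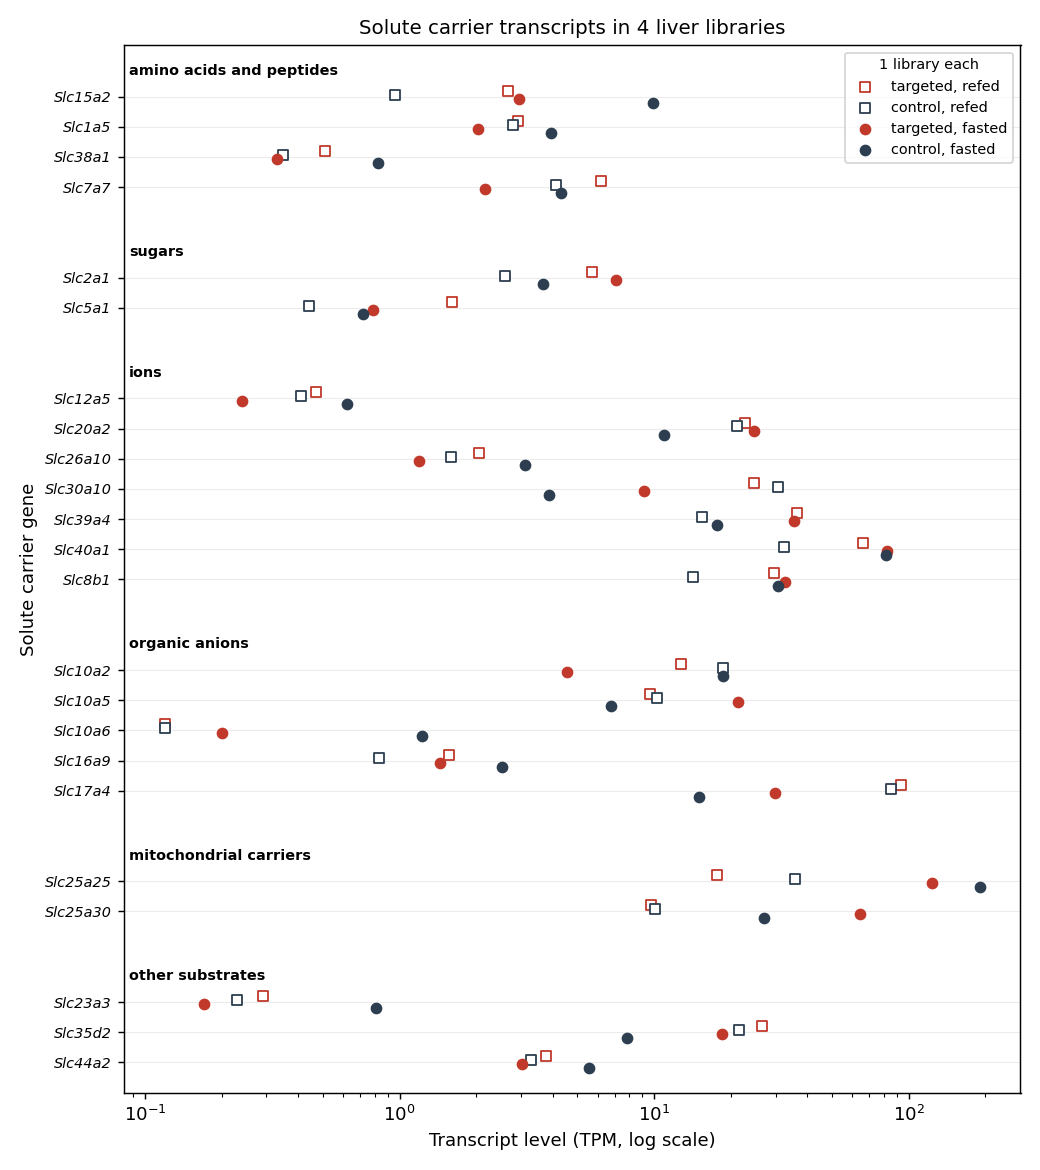
Transcript level in TPM (log scale) of the 23 solute carrier genes, by substrate class, in the targeted and control libraries of refed liver (open squares) and fasted liver (filled circles), 1 library each. Slc25a25 reached 190 TPM in the control fasted library, while Slc10a6 stood at 0.12 TPM in both refed libraries.

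Markers of other liver cell types were looked up in the same tables. Of 70 marker genes on 7 lists (endothelium, macrophage, lymphocyte, neutrophil, stellate cell and matrix, bile duct, erythroid), 24 are in the tables and none of these is at 0 in any library. Their summed level was 385 TPM in the targeted and 268 TPM in the control refed library, and 293 TPM in the targeted and 612 TPM in the control fasted library. A marker is listed only if it passed the 2-fold selection, so the fasted sums largely follow from that selection. Markers outside the tables could not be seen. Of the 612 TPM in the control fasted library, 312 TPM came from erythroid genes. Of the 24 listed markers, 23 are in the fasted table, each below its control level, where 69.7% of all genes were lower. In the refed table Lyve1 and Marco are listed, both higher, where 78.2% of all genes were higher. None of the 8 bile duct and none of the 8 hepatocyte markers is in either table, so the tissue could not be checked with those lists. The part of other cell types in the results below was not tested, and fewer cells of a type and less RNA per cell cannot be told apart in bulk liver.

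The amino acid and peptide transporters are Slc15a2, Slc1a5, Slc38a1 and Slc7a7. Each of the 4 was in the fasted table, below its control level, and all 4 TPM ratios were above 1 in the refed pair. In the fasted state 69.7% of all genes of the table were lower, and of all 924 listed genes 76.0% had a refed ratio above 1, so these counts are near the background. Together they held 12.3 TPM in the targeted and 8.24 TPM in the control refed library, and 7.50 TPM in the targeted and 18.95 TPM in the control fasted library. By this sum the control fasted library was the highest of the 4 and the targeted fasted library the lowest. All 4 genes were selected as lower in targeted than in control fasted liver, which favours this order. Slc15a2 held 9.86 TPM of the control fasted sum, and its own lowest library was control refed.

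Slc15a2 encodes a proton-coupled transporter of di- and tripeptides that reclaims peptides in the kidney. It stood at 2.68 TPM (100 reads) in the targeted and 0.96 TPM (29 reads) in the control refed library, and at 2.96 TPM (90 reads) in the targeted and 9.86 TPM (340 reads) in the control fasted library. The targeted libraries of both states thus lay close together, between the high control fasted and the low control refed library. Slc15a2 was 2.79-fold higher (1.83 to 4.38) in targeted than in control refed liver and 3.33-fold lower (2.63 to 4.25) in targeted than in control fasted liver. Refed control liver was 10.3-fold lower (7.02 to 15.6) than fasted control liver. The endothelial and macrophage markers had the same order of control libraries, for example Marco at 13.03 TPM in the targeted and 4.69 TPM in the control refed library and 8.08 TPM in the targeted and 23.8 TPM in the control fasted library. Control refed liver was below control fasted liver for 666 of 921 listed genes, so this order is common and marks no likeness. Marco, like Slc15a2, was selected for its genotype difference in both states, and a link was not tested.

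The 250 bases before the start site of Slc15a2 are shown because no other member was in both tables. They come from RefSeq on build GRCm38.p6, chr16:36784963-36785212 on the minus strand, written 5′ to 3′ with the motif TGACG in capitals, the short form of the cAMP response element.

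Slc15a2: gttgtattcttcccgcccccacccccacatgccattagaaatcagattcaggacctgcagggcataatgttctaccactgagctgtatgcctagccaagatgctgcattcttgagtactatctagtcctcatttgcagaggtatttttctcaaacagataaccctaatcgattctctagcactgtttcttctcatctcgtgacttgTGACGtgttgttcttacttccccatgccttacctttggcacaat

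The capitals begin 44 bases before the start site. Searched on both strands, TGACG lies in this window of 17.9% of 27025 genes, counted at the first listed start site of each. Whether the copy in Slc15a2 is bound by a factor was not tested.

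Slc7a7 encodes a light subunit of the exchanger that releases cationic amino acids from cells, known from macrophages as well as epithelia. It stood at 6.17 TPM in the targeted and 4.13 TPM in the control refed library, and at 2.17 TPM (29 reads) in the targeted and 4.32 TPM (70 reads) in the control fasted library. The targeted refed library was the highest and the targeted fasted library the lowest, and the control libraries were level. Fasted targeted liver was 1.99-fold lower (1.27 to 3.18) than control. Its exons share 7.0% of their bases with Oxa1l on the opposite strand in GENCODE M21, and the sources used here do not say whether the counting used strand. In all, 8 members share exonic bases with another gene.

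Slc1a5, a sodium-dependent exchanger of neutral amino acids including glutamine, stood at 2.93 TPM in the targeted and 2.80 TPM in the control refed library, and at 2.04 TPM in the targeted and 3.95 TPM in the control fasted library. It was 1.94-fold lower (1.39 to 2.73) in targeted fasted liver. Slc38a1, a sodium-coupled transporter of neutral amino acids, stood at 0.51 TPM in the targeted and 0.35 TPM in the control refed library, and at 0.33 TPM (25 reads) in the targeted and 0.82 TPM (68 reads) in the control fasted library. It was 2.48-fold lower (1.55 to 4.10) in targeted fasted liver. For both genes the control fasted library was the highest of the 4, which their selection favours.

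The sugar transporters are Slc2a1 and Slc5a1, both in the refed table and both higher in the targeted library there. Slc2a1 encodes a facilitative glucose transporter found in many cell types. It stood at 5.70 TPM (171 reads) in the targeted and 2.59 TPM (78 reads) in the control refed library, and at 7.09 TPM in the targeted and 3.66 TPM in the control fasted library. Both targeted libraries were above both control libraries. Slc2a1 was 2.20-fold higher (1.67 to 2.91) in the refed state and 1.94-fold higher by TPM in the fasted state. The listed erythroid markers summed to 217 TPM in the targeted and 158 TPM in the control refed library, and to 161 TPM in the targeted and 312 TPM in the control fasted library. Slc2a1 stood on the same side as these markers when refed and on the opposite side when fasted. The markers were selected as lower in targeted fasted liver, and a link to Slc2a1 was not tested. Slc5a1 encodes the sodium-coupled glucose transporter of the intestine. It stood at 1.61 TPM (77 reads) in the targeted and 0.44 TPM (21 reads) in the control refed library, 3.66-fold higher (2.23 to 6.24), and at 0.79 TPM in the targeted and 0.72 TPM in the control fasted library. The targeted refed library stood above the other 3, which the selection of Slc5a1 in the refed state favours.

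The ion transporters are the largest class, with 7 members. Of these, 3 handle metals. Slc40a1 encodes ferroportin, the iron exporter, which is abundant in macrophages and hepatocytes and is removed from the membrane by hepcidin. It stood at 66.4 TPM (2598 reads) in the targeted and 32.3 TPM (1281 reads) in the control refed library, and at 82.2 TPM in the targeted and 81.7 TPM in the control fasted library. The control refed library was the low one, and the other 3 lay between 66.4 and 82.2 TPM. Slc40a1 was 2.06-fold higher (1.92 to 2.20) in the refed state. The hepcidin gene Hamp stood at 1508 TPM in the targeted and 768 TPM in the control refed library. In fasted liver Hamp stood at 1554 TPM in the targeted and 1390 TPM in the control library. Slc40a1 and Hamp were both selected as higher in targeted refed liver, which favours a low control refed library. The related gene Hamp2, selected in the fasted state, was lowest in the control fasted library, at 47.7 TPM. A link of Slc40a1 to hepcidin was not tested. The macrophage markers listed, Marco and Timd4, summed to 19.6 TPM in the targeted and 8.39 TPM in the control refed library, and to 14.1 TPM in the targeted and 37.05 TPM in the control fasted library. They stood on the same side as Slc40a1 when refed. In the targeted fasted library they were lower, for which they were selected, while Slc40a1 was level with control.

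Slc39a4 encodes a zinc importer known from the intestine. It stood at 36.3 TPM (937 reads) in the targeted and 15.4 TPM (398 reads) in the control refed library, and at 35.6 TPM in the targeted and 17.7 TPM in the control fasted library. Both targeted libraries were thus about level and above both control libraries. The refed ratio was 2.36-fold (2.10 to 2.66). The fasted ratio was 2.01-fold by TPM, although the gene is not in the fasted table, and its log2 ratio by FPKM was 0.80, short of 2-fold. Slc39a4 was the 1 member past 2-fold higher in both states by TPM.

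Slc30a10 belongs to the zinc transporter family and exports manganese, in liver into bile. It stood at 24.7 TPM in the targeted and 30.7 TPM in the control refed library, and at 9.10 TPM (542 reads) in the targeted and 3.87 TPM (262 reads) in the control fasted library. The refed libraries were above the fasted ones in both genotypes, and the genotype ratio was 2.35-fold higher (2.03 to 2.74) in the fasted state. Refed control liver was 7.93-fold higher (6.97 to 9.04) than fasted control liver, the highest feeding ratio among the 23 members in either genotype. Its exons share 9.1% of their bases with Gm2061 on the opposite strand.

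The sequence before the start site of Slc30a10 is shown for its metal-handling role and its feeding ratio. It is RefSeq sequence on GRCm38.p6, chr1:185454598-185454847 on the plus strand, with matches to TGCGCNC, a form of the metal response element core, in capitals.

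Slc30a10: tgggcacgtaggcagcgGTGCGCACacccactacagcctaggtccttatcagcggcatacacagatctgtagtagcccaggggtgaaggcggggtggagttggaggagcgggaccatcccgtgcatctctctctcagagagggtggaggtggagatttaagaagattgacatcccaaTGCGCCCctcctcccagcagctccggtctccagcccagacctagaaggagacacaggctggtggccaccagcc

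On both strands 3 matches were found, and 2 of them overlap each other on opposite strands. They begin 233, 232 and 73 bases before the start site. A match lies in the same window of 12.6% of 27025 genes, and the other form searched, TGCACNC, in 10.2%. These shares were counted at the first listed start site of each gene, and the members over all their listed start sites. Of the 14 members with a promoter in the table, TGCGCNC was found in 3 (Slc25a25, Slc30a10 and Slc44a2) and TGCACNC in 2 (Slc16a9 and Slc2a1). Whether metal acts on Slc30a10 through these matches was not tested, and other listed genes of metal handling differed in direction. Atp7b and Hamp2 were higher in targeted than in control fasted liver by TPM, 2.61-fold and 4.88-fold, as was Slc30a10. The metallothionein genes Mt1 and Mt2, known metal-responsive genes, were lower there. Mt1 stood at 37.4 TPM in the targeted and 23.7 TPM in the control refed library, and at 392.1 TPM in the targeted and 945 TPM in the control fasted library.

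Slc20a2, a sodium-dependent phosphate transporter, stood at 22.8 TPM in the targeted and 21.2 TPM in the control refed library, and at 24.6 TPM (893 reads) in the targeted and 10.9 TPM (446 reads) in the control fasted library. The control fasted library alone was low, which the selection of Slc20a2 as higher in targeted fasted liver favours. The fasted genotype ratio was 2.26-fold (2.01 to 2.53) and the refed over fasted ratio in control 1.95-fold (1.74 to 2.19). Slc8b1 encodes the sodium and calcium exchanger of the inner mitochondrial membrane. It stood at 29.5 TPM (984 reads) in the targeted and 14.2 TPM (475 reads) in the control refed library, and at 32.5 TPM in the targeted and 30.8 TPM in the control fasted library. Like Slc40a1 it was low in the control refed library alone, and its refed genotype ratio was 2.07-fold (1.86 to 2.32). Both genes were selected as higher in targeted refed liver, which favours that pattern.

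Slc26a10, of the anion exchanger family, stood at 2.05 TPM in the targeted and 1.59 TPM in the control refed library, and at 1.19 TPM (36 reads) in the targeted and 3.12 TPM (104 reads) in the control fasted library. Fasted targeted liver was 2.62-fold lower (1.78 to 3.94). Its exons share 17.8% of their bases with B4galnt1 on the opposite strand, so its value is uncertain. Slc12a5, a potassium and chloride cotransporter known from neurons, stood at 0.47 TPM in the targeted and 0.41 TPM in the control refed library, and at 0.24 TPM (14 reads) in the targeted and 0.62 TPM (41 reads) in the control fasted library. It was 2.58-fold lower (1.38 to 5.13) in targeted fasted liver. Both low-level ion genes were highest in the control fasted library, which their selection favours. The summed markers of other cell types, mostly selected in the same way, were highest there too, and a link was not tested.

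The organic anion transporters are 5 members, all in the fasted table, and the 3 bile acid transporter relatives of the Slc10 family differed in direction. Slc10a2 encodes the apical sodium-dependent bile acid transporter of the ileum and bile ducts. It stood at 12.7 TPM in the targeted and 18.7 TPM in the control refed library, and at 4.53 TPM (185 reads) in the targeted and 18.6 TPM (864 reads) in the control fasted library. Both control libraries were level and both targeted libraries were below them. Slc10a2 was 4.11-fold lower (3.50 to 4.85) in targeted fasted liver and 1.47-fold lower by TPM in targeted refed liver. With no bile duct marker in the tables, its level could not be set beside theirs.

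Slc10a5 is a relative of Slc10a2. It stood at 9.66 TPM in the targeted and 10.3 TPM in the control refed library, and at 21.4 TPM (834 reads) in the targeted and 6.76 TPM (300 reads) in the control fasted library. The targeted fasted library alone was high, which its selection favours, 3.16-fold above control (2.77 to 3.62). Slc10a5 had the highest fasted genotype ratio by TPM among the 23 members. Its exons share 6.8% of their bases with Gm38303, annotated on the same strand.

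Slc10a6, which carries sulfated steroids, stood at 0.12 TPM in both refed libraries, and at 0.20 TPM (4 reads) in the targeted and 1.23 TPM (23 reads) in the control fasted library. Targeted fasted liver was 6.15-fold lower (2.10 to 24.5) than control, and refed control liver was 10.3-fold lower (2.53 to 89.7) than fasted control liver on 2 refed reads. Slc16a9, of the monocarboxylate transporter family, stood at 1.56 TPM in the targeted and 0.83 TPM in the control refed library, and at 1.44 TPM in the targeted and 2.53 TPM in the control fasted library. It was 1.76-fold lower (1.24 to 2.52) in targeted fasted liver, and the targeted libraries lay between the control libraries, as for Slc15a2. Its exons share 12.7% of their bases with Gm7097 on the opposite strand.

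Slc17a4 belongs to a family of sodium-coupled carriers of phosphate and organic anions such as urate. It stood at 93.1 TPM in the targeted and 85.5 TPM in the control refed library, and at 29.8 TPM (692 reads) in the targeted and 14.95 TPM (328 reads) in the control fasted library. Both refed libraries were above both fasted libraries. The fasted genotype ratio was 1.99-fold (1.74 to 2.28), and refed control liver was 5.72-fold higher (5.09 to 6.44) than fasted control liver.

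The mitochondrial carriers are Slc25a25 and Slc25a30. Both were lower in refed than in fasted liver in each genotype, by more than 2-fold, and they differed in the genotype ratio. Slc25a25 encodes a calcium-regulated carrier that exchanges magnesium-bound ATP for phosphate. It stood at 17.7 TPM (672 reads) in the targeted and 35.7 TPM (1359 reads) in the control refed library, and at 124 TPM in the targeted and 190 TPM in the control fasted library. The targeted library was lower in each state, 2.02-fold (1.84 to 2.22) when refed and 1.54-fold by TPM when fasted. Refed liver was lower than fasted liver by 7.01-fold in the targeted and by 5.33-fold in the control libraries. It was the most abundant of the 23 members in both fasted libraries. Its exons share 4.8% of their bases with Naif1 on the opposite strand.

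Slc25a30 encodes a carrier of the same family first described in kidney. It stood at 9.76 TPM in the targeted and 10.04 TPM in the control refed library, and at 64.5 TPM (1036 reads) in the targeted and 27.0 TPM (506 reads) in the control fasted library. The refed libraries were level and the targeted fasted library was 2.39-fold (2.14 to 2.66) above the control fasted one. Refed liver was lower than fasted liver by 6.61-fold in the targeted libraries and by 2.69-fold (2.28 to 3.19) in the control libraries.

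The promoters of both carriers are shown because both genes were lower in refed liver in each genotype. The sequences are RefSeq GRCm38.p6, chr2:32424067-32424316 for Slc25a25 (of its 3 listed start sites, the one with the motif) and chr14:75787038-75787287 for Slc25a30, both on the minus strand. Capitals mark the full cAMP response element TGACGTCA, which reads the same on both strands.

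Slc25a25: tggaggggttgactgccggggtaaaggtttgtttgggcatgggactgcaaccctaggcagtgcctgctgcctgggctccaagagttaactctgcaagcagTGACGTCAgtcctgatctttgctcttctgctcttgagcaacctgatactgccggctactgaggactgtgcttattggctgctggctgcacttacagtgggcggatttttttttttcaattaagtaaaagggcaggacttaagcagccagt

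Slc25a30: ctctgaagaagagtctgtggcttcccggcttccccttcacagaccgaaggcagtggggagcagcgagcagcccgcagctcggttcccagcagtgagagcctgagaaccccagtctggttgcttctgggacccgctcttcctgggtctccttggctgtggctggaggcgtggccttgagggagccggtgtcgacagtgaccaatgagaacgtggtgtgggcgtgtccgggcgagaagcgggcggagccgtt

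In Slc25a25 the element begins 150 bases before the start site, and Slc25a30 has no match in this window. The full element holds the shorter TGACG on each strand. It lies in the window of 1.62% of 27025 genes, counted at the first listed start site of each gene. It was found in 1 of the 14 members with a promoter in the table, counted over all their listed start sites. These counts are therefore not alike.

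The remaining members carry other substrates. Slc35d2 encodes a Golgi transporter of nucleotide sugars. It stood at 26.4 TPM in the targeted and 21.6 TPM in the control refed library, and at 18.6 TPM (395 reads) in the targeted and 7.83 TPM (189 reads) in the control fasted library. The control fasted library was the low one, which its selection favours, with a fasted genotype ratio of 2.37-fold (1.99 to 2.84). Slc44a2, a choline transporter-like gene, stood at 3.76 TPM in the targeted and 3.30 TPM in the control refed library, and at 3.03 TPM in the targeted and 5.56 TPM in the control fasted library. Fasted targeted liver was 1.83-fold lower (1.44 to 2.34), and the control fasted library was the highest, which its selection favours. Slc23a3, of the ascorbate transporter family, stood at 0.29 TPM in the targeted and 0.23 TPM in the control refed library, and at 0.17 TPM (5 reads) in the targeted and 0.81 TPM (29 reads) in the control fasted library, 4.76-fold lower (1.82 to 15.8) in targeted fasted liver.

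**Figure D2:**
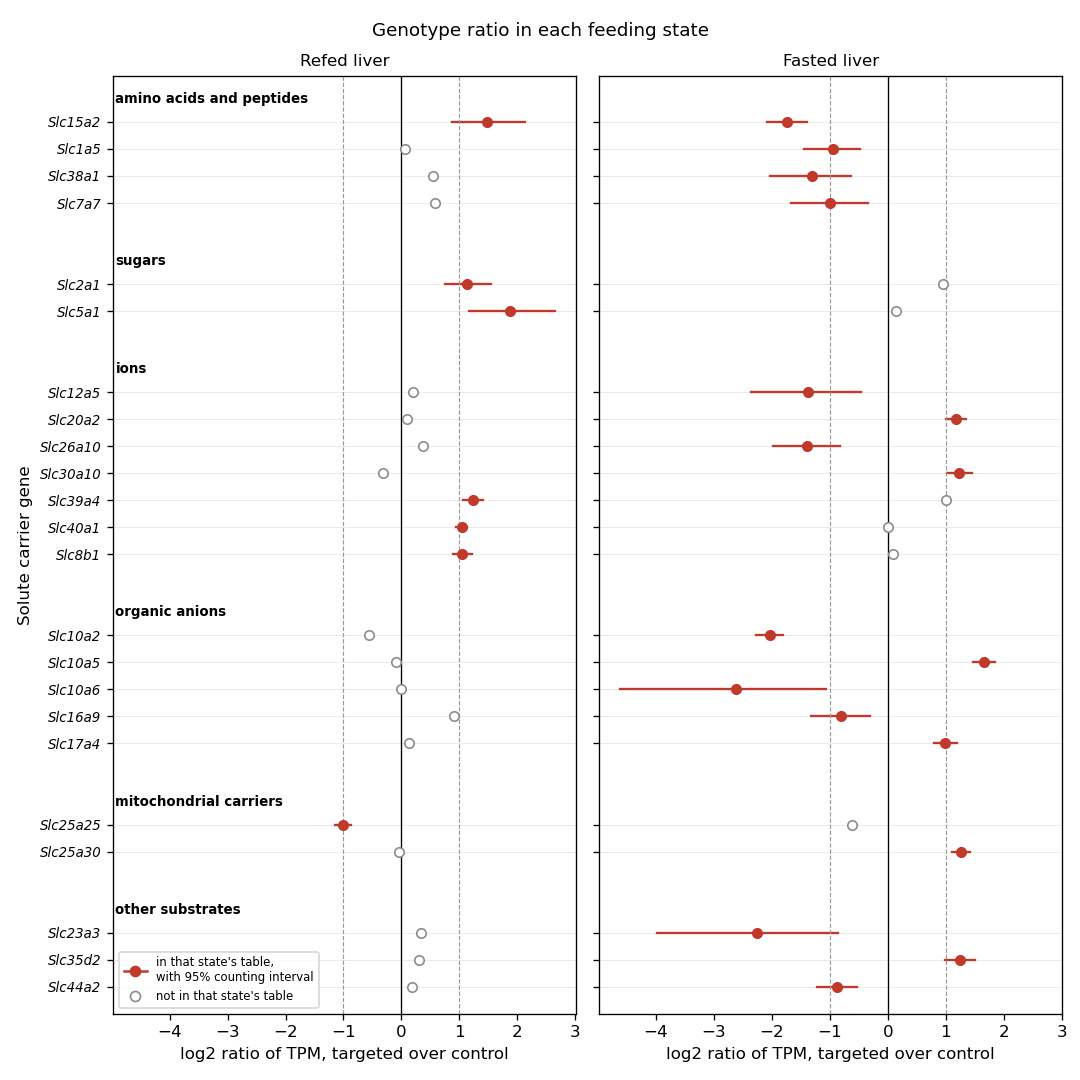
Log2 ratio of TPM, targeted over control, of each solute carrier gene in refed (left) and fasted (right) liver. Filled points are members of that state's table with their 95% counting interval, open points are members outside it, and dashed lines mark 2-fold. In the fasted panel 6 filled points lie to the right of 0 and 11 to the left, and in the refed panel 6 lie to the right and Slc25a25 to the left.

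The genotype ratios of both states were then set side by side over all 23 members, whichever table listed them. By TPM, 6 members were at least 2-fold higher in targeted refed liver, against 26.5% of the 924 genes with a ratio, and 1 was at least 2-fold lower, against 6.93%. In fasted liver 6 members were at least 2-fold higher and 7 lower, against 25.0% and 36.3% of 923 genes. Their median log2 ratio was 0.29 in the refed and -0.62 in the fasted state, and over all listed genes 0.47 and -0.86. Without the members whose mean over the 4 libraries is under 1 TPM, the median fasted log2 ratio was 0.05, so the sign of the fasted median rests on genes of low level. Both ratios were above 1 for 8 members, against 26.5% of 914 genes, and below 1 for 2, Slc10a2 and Slc25a25, against 119 of the 914 genes. Slc10a6 had equal refed values. For 12 members the signs were opposite, against 59.8% of 914 genes, and in 9 of these 12 the ratio was above 1 when refed and below 1 when fasted, a pattern shown by 50.0% of all genes. Of the 11 members lower in the fasted table, 9 peaked in control fasted liver, which their selection favours. This was not counted over all lower genes of that table, so it is not read as a trait of solute carriers.

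Feeding was compared within each genotype, refed over fasted. These ratios share their fasted libraries with the fasted genotype ratios that selected most members, so a member selected as low in the targeted fasted library tends to a higher feeding ratio in targeted than in control liver. In the targeted libraries 5 members were at least 2-fold higher in refed liver and 3 at least 2-fold lower, against 22.4% and 18.0% of 926 genes. In the control libraries 3 members were at least 2-fold higher and 9 at least 2-fold lower, against 16.6% and 44.5% of 921 genes. The median log2 ratio of the members was 0.31 in the targeted and -0.71 in the control libraries, and over all listed genes 0.26 and -0.84. Direction was the same in both genotypes for 11 members and opposite for 12, against 48.8% and 50.5% of 914 genes, so the members were close to the background. Slc17a4 and Slc30a10 were at least 2-fold higher in refed liver in both genotypes, by 3.13-fold and 2.72-fold in the targeted and 5.72-fold and 7.93-fold in the control libraries. Slc25a25 and Slc25a30 were at least 2-fold lower in both. Of all listed genes, 7.66% and 11.4% met these rules. By FPKM, Slc15a2, Slc20a2 and Slc8b1 changed the sign of their feeding ratio in the targeted libraries and Slc7a7 in the control libraries, the largest of these log2 TPM ratios being 0.14 in absolute value.

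**Figure D3:**
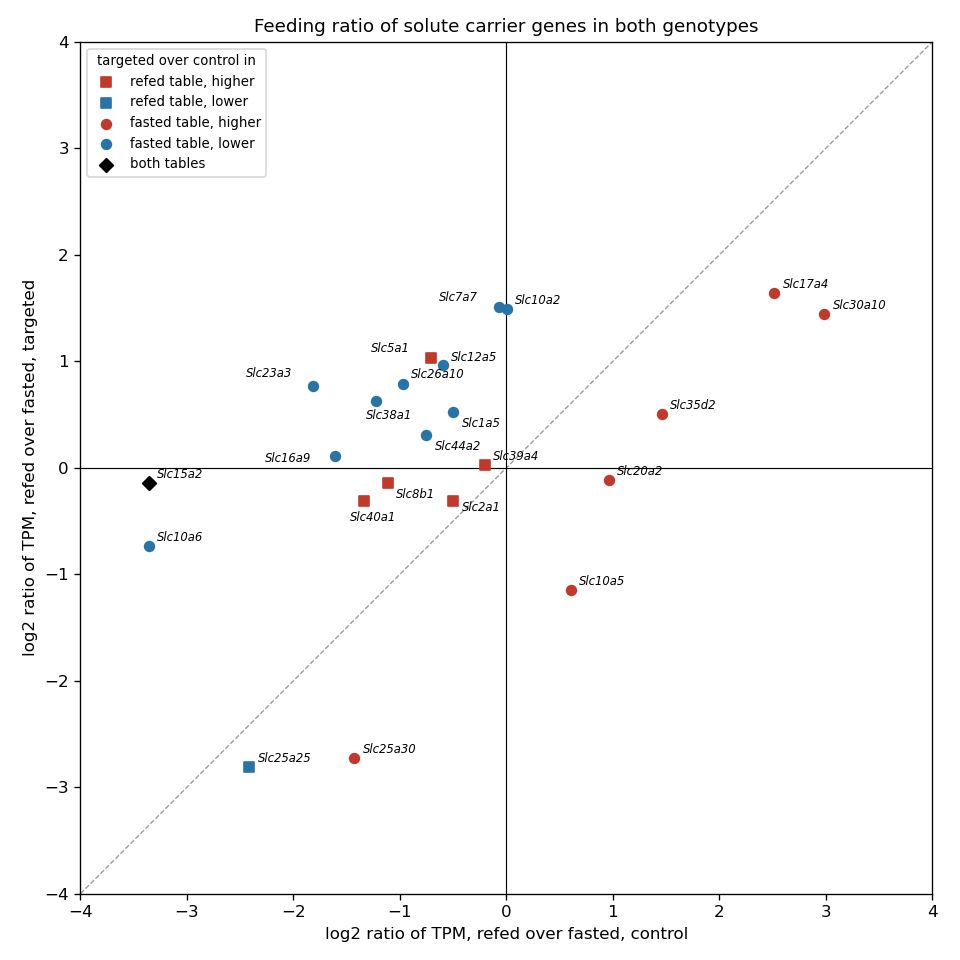
Log2 ratio of TPM, refed over fasted, in the targeted (vertical) against the control libraries (horizontal) for each solute carrier gene, with colour and shape for the table and direction that listed it. The 6 members higher in the fasted table lie below the dashed line of equal ratios and the members lower in it lie above, which their selection favours. Slc25a25 and Slc25a30 lie in the lower left.

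Genes of the pathways that the transporters serve were few in the tables, and their counts stand against 78.2% higher and 21.8% lower among all genes of the refed table, and 30.3% higher and 69.7% lower among all genes of the fasted table. Of 42 genes of amino acid breakdown 5 were listed, all in the fasted table, 3 higher (Bhmt, Gldc and Amt) and 2 lower (Sds and Sdsl). Bhmt, which remethylates homocysteine with betaine, stood at 1151 TPM in the targeted and 2201 TPM in the control refed library, and at 2481 TPM in the targeted and 837 TPM in the control fasted library. Of 24 genes of the ATF4 amino acid response, Fgf21 was lower in the refed table, and in the fasted table Sesn2 was higher and Cebpb, Gdf15 and Ddit4 were lower. Of 16 genes of iron, zinc and copper handling, Hamp and Mt2 were higher in the refed table, and in the fasted table Hamp2 and Atp7b were higher and Mt1 and Mt2 lower. None of 13 partner genes of transporters was in either table.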

How the data were processed

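Total RNA of mouse liver was sequenced in 4 libraries, 1 per group, per the labels. TPM and FPKM of the 4 libraries were computed by the authors and deposited with 2 decimals, per the file headers. Values headed L_A were taken as those of the targeted groups, the only groups not labelled WT. The log2 ratios and the p-values of each pair of libraries are the authors' own, per the file headers, and the sources used here do not state how they were made, nor the aligner, annotation, strandedness and build. A gene outside both tables was not analysed here. The second sheets were not used.

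The p-values were matched, within a relative tolerance of 0.001, to the Audic-Claverie distribution of whole reads in 2 libraries, with its tail doubled. This matched 97.1% of 696 fasted and 93.5% of 263 refed genes with a p-value above the numerical limit. For the feeding ratio of control liver it matched 96.3% of 675 genes. The feeding p-values of Slc30a10 and Slc17a4 were below that limit. Their control refed reads were computed from the authors' feeding ratio and the control fasted reads of the genotype comparison. For 14 of 14 members that could be solved in both comparisons, the control fasted reads from the genotype and from the feeding comparison were equal. On simulated reads the step recovered 675 of 675 fasted and 246 of 246 refed genes, with exact ratios of whole reads, which makes recovery easy. The p-values compare reads of single libraries and were not used as tests. Depth was estimated from reads, FPKM and the lengths of genes with 1 transcript in GENCODE M21 (medians over 32 to 113 genes).

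Ratios are of TPM without a pseudocount. Alternatives were FPKM, pseudocounts of 1 and 0.1 TPM, a mean of at least 1 TPM and the authors' log2 ratio. Every member is given, those with at least 5 TPM in a library with all values. The substrate class follows the gene family. The result of a list of glucose handling genes is not reported here. The members and lists were chosen with earlier results of these data known. Python 3.11.15, pandas 2.3.3, SciPy 1.17.1 and matplotlib 3.10.9 were used.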

Additional observations from a re-analysis of the deposited data

Results flagged for a closer look

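For 12 members the genotype ratio was above 1 in one feeding state and below 1 in the other. With 1 library per group, the difference between the states was not tested, and members of the fasted table were selected for a large fasted ratio. The refed minus fasted difference of the log2 genotype ratios (TPM) was 3.22 for Slc15a2, the 1 of these 12 at least 2-fold different in both states, with log2 ratios of 1.48 when refed and -1.74 when fasted. For the other members with a lower fasted and a higher refed ratio it was 2.59 for Slc23a3, 1.86 for Slc38a1, 1.76 for Slc26a10, 1.72 for Slc16a9, 1.57 for Slc7a7, 1.57 for Slc12a5, 1.06 for Slc44a2 and 1.02 for Slc1a5. For the members with a higher fasted and a lower refed ratio it was -1.75 for Slc10a5, -1.55 for Slc30a10 and -1.30 for Slc25a30. The refed log2 ratio of Slc25a30 was -0.04, of Slc1a5 0.07 and of Slc10a5 -0.09, close to no difference.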

How the results depend on the processing

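No paired analysis was possible because each group has 1 library, and for the same reason no library could be left out. With FPKM, 11 members were at least 2-fold lower in targeted fasted liver in place of 7, and the median log2 ratio of the members was 0.27 (targeted over control, refed), -0.82 (targeted over control, fasted), 0.58 (refed over fasted, targeted) and -0.61 (refed over fasted, control). With a pseudocount of 1 TPM, 3 members in all passed 2-fold between targeted and control refed liver, 3 higher and 0 lower, in place of 7, and 7 in fasted liver in place of 13, with 2 lower. In the control libraries 5 members were then at least 2-fold lower in refed liver in place of 9. The medians in the same order were 0.15, -0.39, 0.14 and -0.38. With 0.1 TPM the medians for the refed genotype, targeted feeding and control feeding ratios were 0.24, 0.30 and -0.60. Among the 18 members with a mean of at least 1 TPM, 3 were at least 2-fold lower in targeted fasted liver, and the medians were 0.24, 0.0452 (the sign reversed), 0.0724 and -0.50. A pseudocount damps, and the minimum leaves out, genes of low level, while FPKM moves all fasted genotype ratios by a median of -0.21. By the authors' log2 ratio, 11 of 17 members were lower in the fasted table, with a median of -1.09, and the median in the refed table was 1.13, over the members listed there alone. For single members, 7 ratios changed sign with FPKM, the largest of them 0.14 in absolute log2 value by TPM, and none with a pseudocount of 1 TPM. For the 3 members under 1 TPM in every library (Slc38a1, Slc12a5 and Slc23a3), 25, 14 and 5 reads in targeted fasted liver limit the precision.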
